A study of Mus musculus with 8 samples.

Results

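Chemokine receptors were examined in bulk RNAseq libraries of muscle pericytes and muscle SMCs (smooth muscle cells). The genes were Ccr1, Ccr2, Ccr6, Cxcr2, Cxcr3, Cxcr4, Cxcr6 and Cx3cr1, which encode receptors for inflammatory chemokines, and Darc, which encodes an atypical receptor. These 9 of the 37979 listed genes were found by symbol, and each symbol had 1 entry. Darc was chosen by its FPKM values in the groups compared here, so it is described without a test, whereas the other 8 genes were taken by name and tested.

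Both groups came from hindlimb muscles of 3 to 4 month old Ai14+/-;SM22α-Cre+ mice, in which Cre driven by the SM22α promoter permanently switches on tdTomato. Cells stained for CD31 (endothelial cells) or CD45 (leukocytes) were to be left out, and PDGFRβ+ cells were then sorted as tdTomato- cells (pericytes, 4 libraries) or tdTomato+ cells (SMCs, 4 libraries). The labels do not divide the 8 libraries into batches. Cells from multiple sorts were pooled into each library, and it is not stated that same-numbered libraries share animals. Tests measure the spread between these pools. The paper names batch effects as a possible source of variation among replicates. Deviations from the group means correlated positively between pericyte and SMC libraries within replicates 1 and 2 or within 3 and 4 (8 of 8 correlations). Across these sets all 8 were negative. tdTomato marks any cell with a history of SM22α promoter activity, so the SMC gate can also hold tdTomato+ pericytes.

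Chemokines are small secreted proteins that direct cell migration. Classical chemokine receptors span the membrane, couple to inhibitory G proteins and are best known on leukocytes, where each lineage carries its own combination. Darc (Ackr1, the Duffy antigen) binds many inflammatory chemokines of the CC and CXC families without G protein signalling, and is known from red cells and from the endothelium of venules.

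Promoter sequences are shown for Darc, the member that was lower in pericytes, for Cxcr6, the receptor with the highest level in pericytes, and for Ccr1, a neighbour of Cxcr6 on chromosome 9 that did not differ by the test. They are RefSeq sequences of build GRCm38.p6, cover the 250 bases before the annotated start site and read 5′ to 3′ on the gene's strand. All 9 members matched the RefSeq table. Capitals mark matches on either strand to AGATAA (known for factors of the GATA family), AGGAAG (the ETS family), TGTGGT (the RUNX family) or GGTGTGA (the T-box family). No marked matches overlap in these 3 sequences.
Darc, chr1:173333504-173333753, minus strand: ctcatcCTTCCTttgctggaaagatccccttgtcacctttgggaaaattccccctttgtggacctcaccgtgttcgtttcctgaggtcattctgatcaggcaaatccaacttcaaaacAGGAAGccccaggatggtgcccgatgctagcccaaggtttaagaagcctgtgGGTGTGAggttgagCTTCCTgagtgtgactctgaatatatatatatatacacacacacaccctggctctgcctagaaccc
Cxcr6, chr9:123806227-123806476, plus strand: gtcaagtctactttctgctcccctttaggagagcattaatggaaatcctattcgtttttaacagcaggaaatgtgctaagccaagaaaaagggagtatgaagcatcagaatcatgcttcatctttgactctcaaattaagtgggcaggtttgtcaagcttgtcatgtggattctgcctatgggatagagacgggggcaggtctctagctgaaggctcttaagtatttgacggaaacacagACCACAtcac
Ccr1, chr9:123968693-123968942, minus strand: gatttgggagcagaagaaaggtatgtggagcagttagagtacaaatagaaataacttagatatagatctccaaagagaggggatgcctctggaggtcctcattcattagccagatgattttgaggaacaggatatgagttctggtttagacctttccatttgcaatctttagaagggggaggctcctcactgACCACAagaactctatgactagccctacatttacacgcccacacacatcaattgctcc

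The Darc sequence held 3 ETS matches and 1 T-box match, and the Cxcr6 and Ccr1 sequences held 1 RUNX match each. A GATA match lay 26 bases into the Darc transcript, on the opposite strand, and is shown in capitals within 30 bases.
Darc, chr1:173333461-173333490, minus strand: agccctgggcacTTATCTtggagccacagc
Among 32851 promoters of 300 bases (250 before and 50 after the start), 11.2% held the GATA letters, 35.4% the ETS letters, 16.8% the RUNX letters and 3.98% the T-box letters. These matches describe letters in the sequence and are not evidence of binding.

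In the libraries, 5 of the 8 receptors tested (Cxcr6, Ccr6, Cxcr3, Cxcr4 and Ccr2) passed in favour of muscle pericytes and none in favour of muscle SMCs (limma on log2(FPKM + 1), q below 0.05). FPKM scales the fragments of a gene to its transcript length and to the number of mapped reads, so genes can be compared roughly within a library. FPKM sums differed between libraries and were highest in pericyte replicate 2. A given FPKM is therefore not a fixed share of the RNA across libraries. Within pericytes, replicate 2 also had the lowest Ptprc but the highest Coro1a (both leukocyte genes, described below), which limits rankings, shares and ratios there. Of all 27414 genes tested, 10.6% passed in favour of pericytes, 11.2% in favour of SMCs and 21.8% in either direction. All 5 also had a log2 difference above 2, as did 3.24% of the genes tested in that direction and 2.66% in the other. The groups did not overlap for these 5 genes, and for 12.1% of all genes tested every pericyte library was likewise the higher. No receptor was higher in SMCs at an unadjusted p below 0.05, nor by an exact permutation test. The median log2 difference, pericytes minus SMCs, was 2.43 over the 8 receptors and 0.02 over all genes tested.

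**Figure D1:**
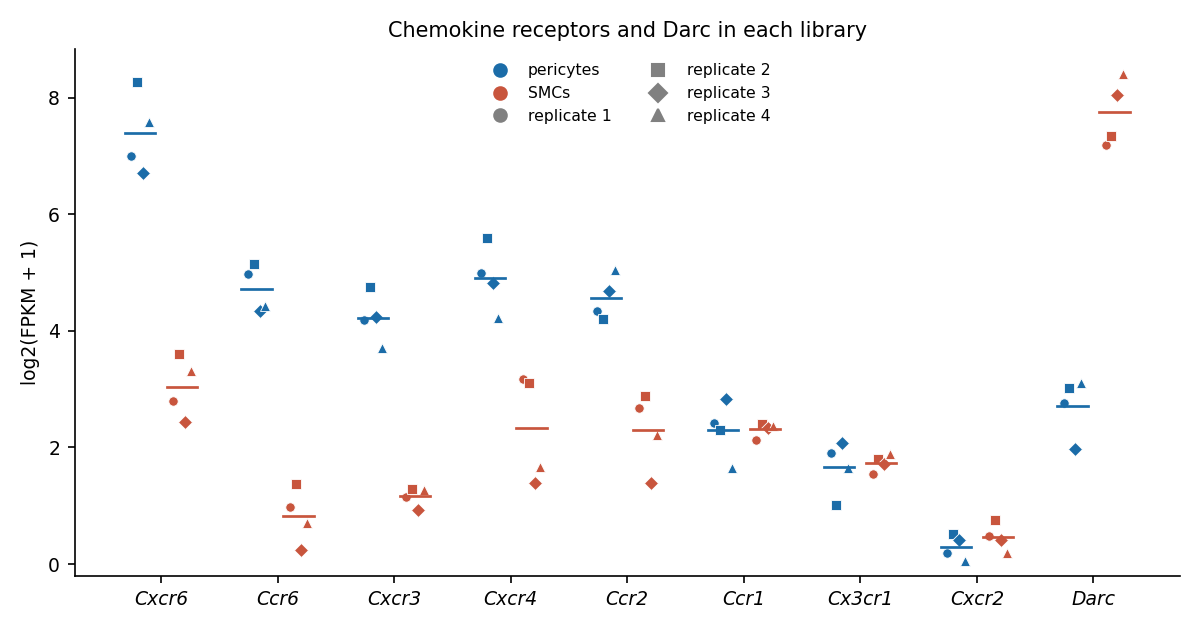
Level of each gene as log2(FPKM + 1) in the 4 pericyte libraries (blue) and the 4 SMC libraries (red), with a marker for each replicate number and a bar at the group mean. Cxcr6, Ccr6, Cxcr3, Cxcr4 and Ccr2 lie higher in every pericyte library, Ccr1, Cx3cr1 and Cxcr2 overlap between groups, and Darc lies higher in every SMC library.

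Cxcr6, the receptor for Cxcl16 known from effector and tissue-resident T cells, had the highest mean of the 8 receptors in both groups. It had 126.8, 307.7, 104.0 and 191.8 FPKM in pericyte replicates 1 to 4 and 5.91, 11.1, 4.39 and 8.95 FPKM in SMC replicates 1 to 4. The groups were far apart, and replicate 2 was the highest library in each. The log2 difference was 4.36 (standard error 0.40, limma q = 3.4e-04), and the mean FPKM was 24.0 times that of SMCs. Cxcr6 lies on chromosome 9 (123715595 to 123720872, plus strand, NCBI Build 37) inside the span of Fyco1 on the other strand, with which it shares 0 exonic bases. Fyco1 itself had 0.678 to 4.54 FPKM in pericytes and 1.28 to 11.8 FPKM in SMCs.

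Ccr6, the receptor for Ccl20, is known from B cells and from T helper cells of the interleukin-17 type. Its values in pericyte replicates 1 to 4 were 30.3, 34.3, 19.3 and 20.6 FPKM, against 0.972, 1.60, 0.177 and 0.622 FPKM in SMC replicates 1 to 4. No SMC library reached 2 FPKM. The log2 difference was 3.90 (standard error 0.29, limma q = 1.4e-04), and the mean FPKM was 31.0 times that of SMCs. Which of Ccr6 and Cxcr6 differed more depends on the pseudocount, since with 0.1 in place of 1 the log2 difference was 5.03 for Ccr6 and 4.53 for Cxcr6. In both groups replicates 1 and 2 had more Ccr6 than replicates 3 and 4.

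Cxcr3 binds the interferon-induced chemokines Cxcl9 and Cxcl10 and marks activated T cells and NK cells. Pericyte replicates 1 to 4 had 17.3, 26.0, 17.9 and 11.97 FPKM and SMC replicates 1 to 4 had 1.23, 1.43, 0.910 and 1.41 FPKM. The SMC values were close together, and the lowest pericyte library was above all of them. The log2 difference was 3.06 (standard error 0.21, limma q = 1.1e-04).

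Cxcr4, the receptor for Cxcl12, is carried by most leukocytes and by other cells, including some endothelial cells. It had 30.7, 47.4, 27.1 and 17.7 FPKM in pericyte replicates 1 to 4 and 8.02, 7.64, 1.61 and 2.16 FPKM in SMC replicates 1 to 4. The groups did not overlap, but Cxcr4 varied most among the 8 receptors within SMCs on the log2 scale (SD 0.94, n = 4), where replicates 1 and 2 were above replicates 3 and 4. The log2 difference was 2.57 (standard error 0.50, limma q = 0.00998). Taken within replicates 1 and 2 it was 2.15, and within replicates 3 and 4 it was 2.997.

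Ccr2, the receptor for Ccl2 on inflammatory monocytes, is also found on some T cells. Pericyte replicates 1 to 4 had 19.2, 17.5, 24.8 and 32.1 FPKM and SMC replicates 1 to 4 had 5.36, 6.41, 1.63 and 3.65 FPKM. Unlike Ccr6, Ccr2 was higher in pericyte replicates 3 and 4 than in 1 and 2. The log2 difference of 2.28 (standard error 0.35, limma q = 0.00344) was made up of 1.49 within replicates 1 and 2 and 3.06 within replicates 3 and 4. Of the 6439 windows of 50 bases in Ccr2 transcripts, 120 also occur in transcripts of other genes, so a small part of its reads could come from there. Cxcr2 shares 80 of 3031 such windows and Cx3cr1 shares 7 of 3680, whereas Ccr6, Cxcr3, Cxcr4, Cxcr6, Ccr1 and Darc share 0.

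The other receptors did not pass the test. Ccr1, which binds Ccl3 and Ccl5 and is known from monocytes and neutrophils, had 4.36, 3.91, 6.12 and 2.13 FPKM in pericyte replicates 1 to 4 and 3.36, 4.30, 4.05 and 4.18 FPKM in SMC replicates 1 to 4. All SMC values lay within the pericyte range. The log2 difference of -0.01 had a 95% interval from -0.56 to 0.54 (limma q = 0.987), which leaves room for a difference of that size in either direction.

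Cx3cr1, the fractalkine receptor of patrolling monocytes and resident macrophages, had 2.74, 1.023, 3.19 and 2.12 FPKM in pericytes and 1.93, 2.50, 2.27 and 2.71 FPKM in SMCs, in replicate order. Here too the SMC libraries lay inside the range of the pericyte libraries. The log2 difference was -0.08 (95% interval -0.61 to 0.45, limma q = 0.847). Cxcr2, the neutrophil receptor for Cxcl1 and related chemokines, was below 1 FPKM in all 8 libraries, at 0.0412 to 0.423 FPKM in pericytes and 0.136 to 0.689 FPKM in SMCs (log2 difference -0.16, 95% interval -0.51 to 0.19, limma q = 0.557). At these levels log2(FPKM + 1) understates fold changes, and the number of reads behind the values is unknown.

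**Figure D2:**
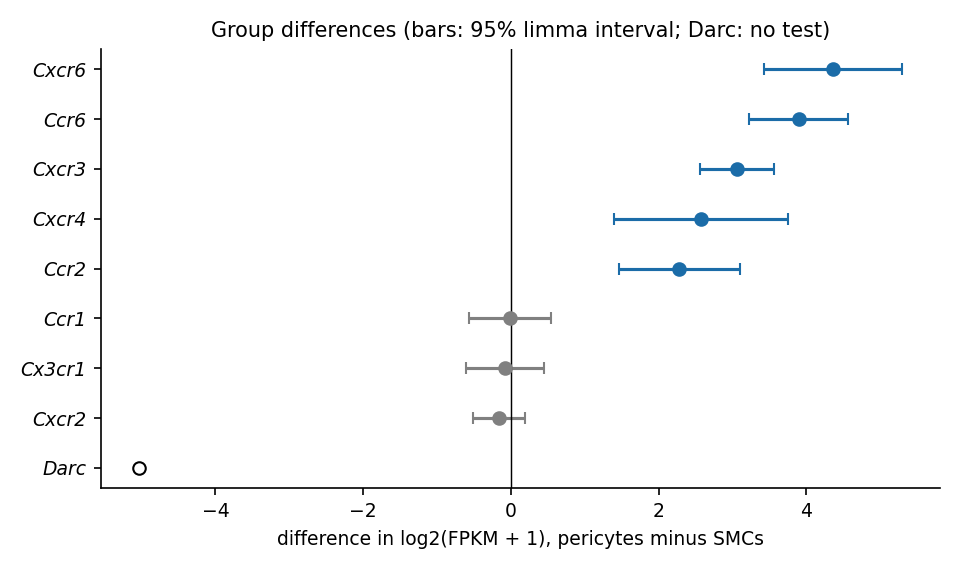
Difference in log2(FPKM + 1), pericytes minus SMCs, for each gene, with 95% limma intervals for the 8 tested receptors (blue, q below 0.05; grey, not passed) and an open point without interval for Darc, which was not tested. The 5 blue intervals lie above 0, the lowest of them from 1.39 to 3.75 for Cxcr4, and the 3 grey intervals include 0.

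Within pericytes, Cxcr6 was the highest member at a mean of 183 FPKM, and no library of any other member reached its range. Cxcr4, Ccr6, Ccr2 and Cxcr3 followed at means of 30.7, 26.1, 23.4 and 18.3 FPKM, and the ranges of neighbours in this order overlapped. Darc (5.87 FPKM), Ccr1 (4.13 FPKM) and Cx3cr1 (2.27 FPKM) came next, with overlapping neighbours, and Cxcr2 was lowest.

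Within SMCs, Darc was highest at a mean of 227 FPKM, above every library of every other member. Cxcr6 (7.60 FPKM), Cxcr4 (4.86 FPKM), Ccr2 (4.26 FPKM) and Ccr1 (3.97 FPKM) followed, and the ranges of neighbours in this order overlapped. Cx3cr1 (2.35 FPKM) lay below every Ccr1 library, and Cxcr3 (1.25 FPKM) lay below every Cx3cr1 library. Ccr6 (0.843 FPKM) and Cxcr2 (0.386 FPKM) came last, with overlapping neighbours. Of the summed FPKM of the 8 receptors, Cxcr6 made up 51.3% to 70.2% in pericytes and 21.8% to 37.6% in SMCs, whereas Ccr1 made up 0.766% to 3.02% and 12.04% to 26.3%.

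The sort was meant to leave out CD45+ cells, but Ptprc, the gene of CD45, averaged 175 ± 65.6 FPKM (SD, n = 4) in the pericyte libraries and 8.16 ± 3.18 FPKM (SD, n = 4) in the SMC libraries (limma q = 4.0e-04). All 7 T cell markers, all 6 B cell markers and all 5 NK cell markers examined were higher in pericytes. Their summed levels were 1533 to 2420, 795 to 1979 and 172 to 294 FPKM in pericytes and 19.5 to 34.5, 9.60 to 30.9 and 2.13 to 5.31 FPKM in SMCs. None of them was at 0 in a whole group. Of 5 dendritic cell markers, 3 were higher in pericytes (104.5 to 215.8 FPKM summed, against 15.4 to 30.4 FPKM in SMCs). In bulk samples, fewer cells of a type and less RNA per cell cannot be told apart, and the part of leukocyte RNA in the receptor differences was not tested.

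Markers of myeloid cells did not move in the same way. Of 8 monocyte and macrophage markers, 0 were higher in pericytes, also at an unadjusted p below 0.05, and 4 (Emr1, Mrc1 and Fcgr1 among them) were higher in SMCs, with sums of 909 to 1896 FPKM in pericytes and 1079 to 1711 FPKM in SMCs. Of 8 neutrophil markers, only Mpo was higher in pericytes, and the sums overlapped (1062 to 4982 FPKM and 291 to 3598 FPKM). Pericyte markers were present in every pericyte library, but of 7 examined 0 were higher there (also at an unadjusted p below 0.05) and Rgs5 was higher in SMCs (limma q = 0.0240). At an unadjusted p below 0.05, 3 of the 7 were higher in SMCs, and all 7 had a negative log2 difference, from -0.97 to -2.02. The 7 together summed to 32.5 to 96.5 FPKM in pericytes and 73.7 to 319 FPKM in SMCs. The 6 smooth muscle markers also gave 0 calls by limma (3 were higher in SMCs at an unadjusted p below 0.05). All 6 had a negative log2 difference, from -0.76 to -1.51, and their sums overlapped slightly, at 570.0 to 1857 FPKM in pericytes and 1715 to 5521 FPKM in SMCs.

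The receptors were also set against Ptprc within each library. These ratios were computed after the values were seen and carry no test. The ratio of Cxcr6 to Ptprc was 0.452 to 3.82 in pericytes and 0.605 to 1.36 in SMCs, and the ratios of Ccr6, Cxcr3 and Cxcr4 overlapped between groups as well. For Cxcr3 and Cxcr4 the overlap came from pericyte replicate 2 alone, the pericyte library with the least Ptprc (80.6 FPKM, against 188.7 to 230.3 FPKM in the others). This library also had the least Laptm5 of the pericyte libraries (569 FPKM, against 608 to 1115 FPKM) but the most Coro1a (1588 FPKM, against 1025 to 1188 FPKM). Its T cell and B cell marker sums were the highest (2420 and 1979 FPKM), so low Ptprc there does not stand for fewer leukocyte transcripts in general. Without that library the ratio of Cxcr3 was 0.0635 to 0.0854 in pericytes and 0.119 to 0.284 in SMCs, and that of Cxcr4 was 0.0938 to 0.152 and 0.182 to 1.85. Ccr2 had 0.0951 to 0.217 times the FPKM of Ptprc in pericytes and 0.224 to 1.24 times in SMCs. The ratio was also higher in every SMC library for Ccr1 (0.352 to 0.773 against 0.0113 to 0.0485), Cx3cr1 (0.228 to 0.445 against 0.0112 to 0.0139) and Cxcr2 (0.0114 to 0.0900 against 2.2e-04 to 0.00524). Among all genes tested the ratio to Ptprc was higher in every SMC library for 56.6% and in every pericyte library for 0.657%. The former held for 4 of the 8 receptors, and without pericyte replicate 2 for 6 of 8 receptors and 59.6% of all genes tested. The 4 receptors are thus near the share of all genes. With the other pan-leukocyte genes as denominators it held for 6 receptors over Coro1a (59.4% of all genes tested) and for 3 over Laptm5 (54.3%). Over Laptm5 the groups overlapped for Ccr2, at 0.0223 to 0.0317 in pericytes and 0.0224 to 0.242 in SMCs. Over Coro1a they did not overlap for Cxcr3 and Cxcr4. Over each of the 3 genes, Cxcr6 and Ccr6 overlapped and Ccr1, Cx3cr1 and Cxcr2 did not.

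**Figure D3:**
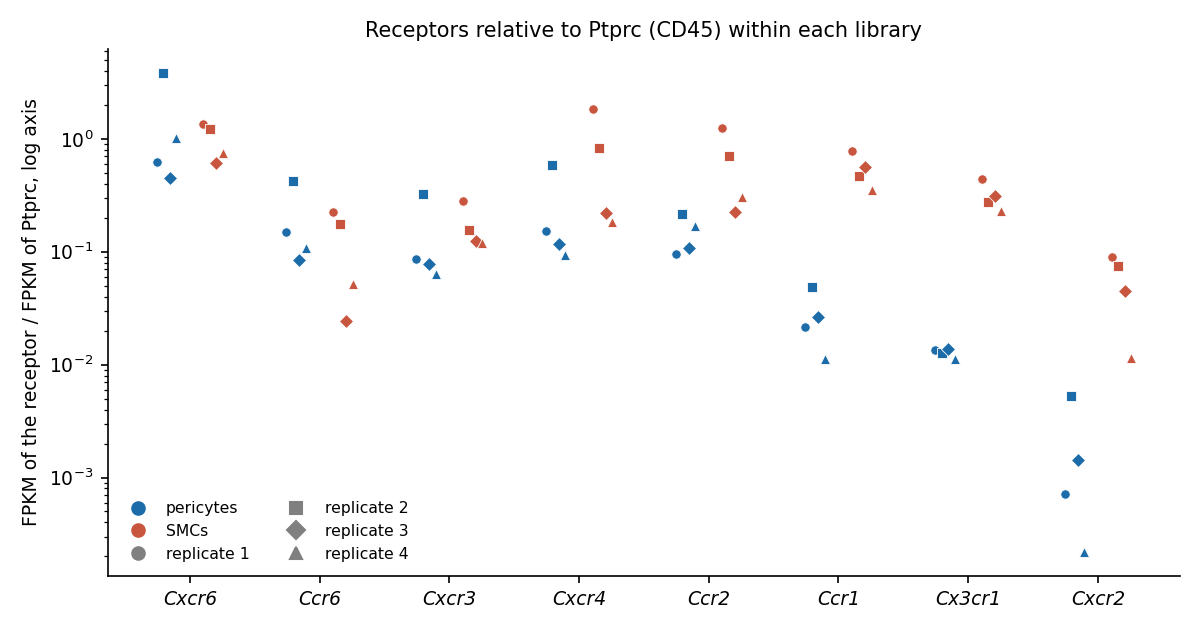
FPKM of each receptor divided by FPKM of Ptprc (CD45) in the same library, on a log axis, for the 4 pericyte libraries (blue) and the 4 SMC libraries (red). Cxcr6 and Ccr6 overlap between groups, Cxcr3 and Cxcr4 overlap only through pericyte replicate 2 (0.322 and 0.588), and Ccr2, Ccr1, Cx3cr1 and Cxcr2 lie higher in every SMC library.

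Darc was higher in SMCs, unlike the 5 receptors that passed the test. It had 5.80, 7.14, 2.92 and 7.61 FPKM in pericyte replicates 1 to 4 and 145.4, 160.6, 263.9 and 340.0 FPKM in SMC replicates 1 to 4. The groups were far apart, and within SMCs replicates 3 and 4 were above replicates 1 and 2. The mean in SMCs was 38.8 times the mean in pericytes, and the log2 difference was 5.03 in favour of SMCs, with 4.37 within replicates 1 and 2 and 5.69 within replicates 3 and 4. Darc was chosen for this pattern, and 12.5% of all genes tested likewise had all SMC values above all pericyte values. The gene lies on chromosome 1 from 175262017 to 175263634 on the minus strand (NCBI Build 37) and overlaps no other annotated gene.

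Markers of endothelium moved with Darc, although CD31+ cells were meant to be left out. Pecam1, the gene of CD31, had 25.0 to 59.7 FPKM in pericytes and 101.8 to 301.1 FPKM in SMCs. Of 8 endothelial markers, 6 were higher in SMCs by limma, and their sum was 109 to 191 FPKM in pericytes and 509 to 1363 FPKM in SMCs. All 6 venular endothelial markers were higher in SMCs, with sums of 13.3 to 47.1 FPKM in pericytes and 165.4 to 743.3 FPKM in SMCs. Among them, Selp (P-selectin) and Sele (E-selectin) had log2 differences of -4.45 (limma q = 0.0232) and -4.52 (limma q = 0.00366). No endothelial marker was at 0 in a whole group, and the part of endothelial RNA in the Darc difference was not tested. Fibroblast markers moved in the same direction as Darc. Of 6 examined, Pdgfra, Lum, Col1a1, Col3a1 and Dpt were higher in SMCs (log2 differences of -3.20 to -4.11), whereas Dcn had 509 to 1165 FPKM in pericytes and was listed at 0 in every SMC library. An exact 0 in a table without read counts can be a failed estimate, so the call for Dcn is not read as a difference in expression. The sum was 788 to 1611 FPKM in pericytes and 3393 to 4966 FPKM in SMCs. Without Dcn it was 265 to 446 FPKM in pericytes and unchanged at 3393 to 4966 FPKM in SMCs. Their part in the Darc difference was not tested.

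The ratios of Darc to endothelial genes within each library were also computed after the values were seen and carry no test. Darc had 0.0656 to 0.286 times the FPKM of Pecam1 in pericytes and 0.943 to 1.43 times in SMCs, and 2.14 to 4.37 times the FPKM of Cdh5 (VE-cadherin) in pericytes and 17.6 to 29.4 times in SMCs. Darc was chosen for its pattern, and its mean in SMCs was 38.8 times that in pericytes, against 4.34 times for Pecam1 and 5.62 times for Cdh5. The separation of these ratios thus follows largely from that choice. Relative to Selp the groups overlapped, at 1.13 to 9.29 in pericytes and 0.948 to 8.31 in SMCs. In SMCs this ratio was 8.31 and 6.68 in replicates 1 and 2 but 0.948 and 1.11 in replicates 3 and 4. Selp itself had 17.5 and 24.1 FPKM in SMC replicates 1 and 2 and 278 and 305 FPKM in SMC replicates 3 and 4. Red cell genes gave no call. Of 8 erythroid markers, 0 passed the test in either direction, also at an unadjusted p below 0.05, and their sum was 125 to 3623 FPKM in pericytes and 128 to 818 FPKM in SMCs.

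**Figure D4:**
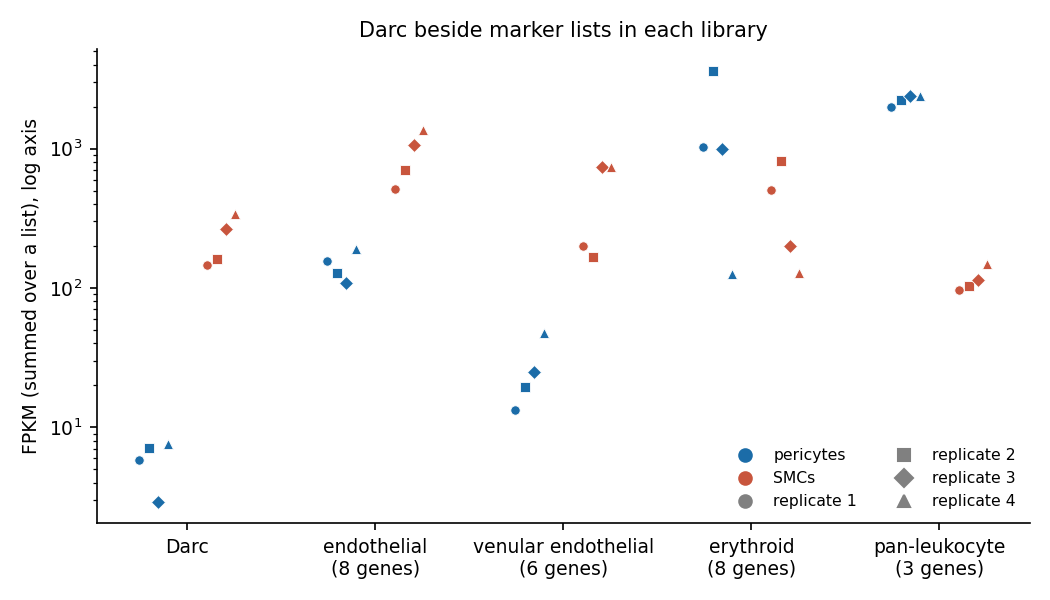
FPKM of Darc and summed FPKM of 4 marker lists in each library on a log axis (blue, pericytes; red, SMCs; markers give the replicate number). Darc, the endothelial and the venular endothelial lists lie higher in every SMC library, the pan-leukocyte list lies higher in every pericyte library, and the erythroid sums overlap.

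The genes whose values followed Darc most closely over the 8 libraries, among 13612 genes averaging 1 FPKM or more, were Sept4, Lamp2, Plscr2, Ccl7 and Jam2 (Pearson r of log2 values 0.998 to 0.995). The r of their deviations from the group means was 0.863 to 0.958, in the same 8 libraries that chose them. For Cxcr6 the closest were Igkc, Eif2s1, Cox6a2, AI662270 and Prpf38a (r of 0.997 to 0.994, and 0.896 to 0.941 for the deviations). These values describe 8 libraries that differ in group, depth and composition, and the part of these differences in r was not tested. Among the members themselves, the deviations of Ccr6 and Cxcr4 were most alike (r = 0.853) and those of Cxcr6 and Cx3cr1 were most opposed (r = -0.632).

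Receptor genes on chromosome 9 were compared because several members are neighbours there. Ccr9, Cxcr6, Xcr1, Ccr1, Ccr3 and Ccr2 lie there in this order (NCBI Build 37). Ccr9, Cxcr6 and Ccr2 were higher in pericytes, whereas Xcr1, Ccr1 and Ccr3, which lie between Cxcr6 and Ccr2, did not pass. The limma q values of these 3 genes were 0.0644, 0.987 and 0.403. Xcr1 was nonetheless higher in every pericyte library (2.05 to 4.46 FPKM, against 0.592 to 1.93 FPKM in SMCs). With replicate number as a block it passed in favour of pericytes (limma q = 0.0146). Ccr1 (123876959 to 123883525, minus strand) and Ccr2 (124016689 to 124028296, plus strand) had similar levels in SMCs (3.97 ± 0.42 and 4.26 ± 2.09 FPKM, SD, n = 4) and different levels in pericytes (4.13 ± 1.64 and 23.4 ± 6.58 FPKM, SD, n = 4).

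Beyond the members, the other chemokine receptors comprised 14 symbols in 15 entries, of which 7 passed in favour of pericytes and 3 in favour of SMCs. Cxcr5 and Ccr7, which guide lymphocytes within lymphoid organs, had log2 differences of 4.74 (limma q = 5.1e-06) and 4.27 (limma q = 5.5e-05). The gut-homing receptor Ccr9 had 3.83 (limma q = 4.9e-06), and Ccr8, known from regulatory T cells, had 3.67 (limma q = 6.9e-04). The 3 entries higher in SMCs were Cxcr7, Ccbp2 and an entry of Ccrl1, the older names of atypical receptors that bind chemokines without classical signalling, as Darc does. Cxcr7 (Ackr3) had 7.67 to 35.2 FPKM in pericytes and 99.9 to 152.7 FPKM in SMCs. Ccbp2 (Ackr2) had 0.242 to 0.642 and 2.60 to 3.86 FPKM, and Ccrl1 (Ackr4) had 0.845 to 5.03 and 9.05 to 21.7 FPKM. A second entry under the symbol Ccrl1 was below 1 FPKM in all libraries. Cxcr7, Ccbp2 and Ccrl1 were singled out after their values were seen. Endothelial and fibroblast markers were likewise mostly higher in SMCs, and lymphocyte markers were higher in pericytes, and their part in the differences of these other receptors was not tested. Ccrl2, another atypical receptor, did not pass (log2 difference -0.61, limma q = 0.128). With replicate number as a block it passed in favour of SMCs (limma q = 0.0473).

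Ligands of the members were compared in the same libraries. Of 18 ligand genes, 10 were higher in SMCs and only Ccl5, a ligand of Ccr1, was higher in pericytes (1750 ± 750 against 61.7 ± 23.3 FPKM, SD, n = 4, limma q = 2.3e-04). Ligands of Ccr2 were among those with the largest differences in favour of SMCs, with log2 differences of -3.48 for Ccl12 (limma q = 0.00190), -3.35 for Ccl7 (limma q = 4.8e-05) and -2.92 for Ccl2 (limma q = 7.6e-05). Cxcl16, the ligand of Cxcr6, had 16.6 to 57.8 FPKM in pericytes and 56.8 to 65.5 FPKM in SMCs and did not pass (limma q = 0.228). Ccl3 also did not pass (limma q = 0.922). The fibroblast and endothelial markers described above were likewise mostly higher in SMCs, and the T cell and NK cell markers were higher in pericytes, as Ccl5 was. The part of these cell types in the ligand differences was not tested.

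Of 16 genes that act below the receptors, 12 passed in favour of pericytes and 0 in favour of SMCs, also at an unadjusted p below 0.05. With replicate number as a block, Plcb3 passed in favour of SMCs (log2 difference -1.51, limma q = 0.0164). Rac2, a small GTPase of blood cells, and Dock2, which activates Rac in leukocytes, had log2 differences of 4.63 (limma q = 6.9e-05) and 3.94 (limma q = 0.00259). Pik3r5, a regulatory subunit of the phosphoinositide 3-kinase that G proteins activate, had 2.92 (limma q = 6.6e-04), and Rgs1, which limits G protein signalling, had 2.49 (limma q = 8.9e-05). The G protein subunits Gnai2 and Gnai3, which many cells use, did not pass (limma q = 0.783 and 0.760). Their log2 differences had 95% intervals of -0.88 to 1.38 and -0.40 to 0.65. The T cell, B cell, NK cell and pan-leukocyte markers were also higher in pericytes, and their part in the differences of these signalling genes was not tested.

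**Figure D5:**
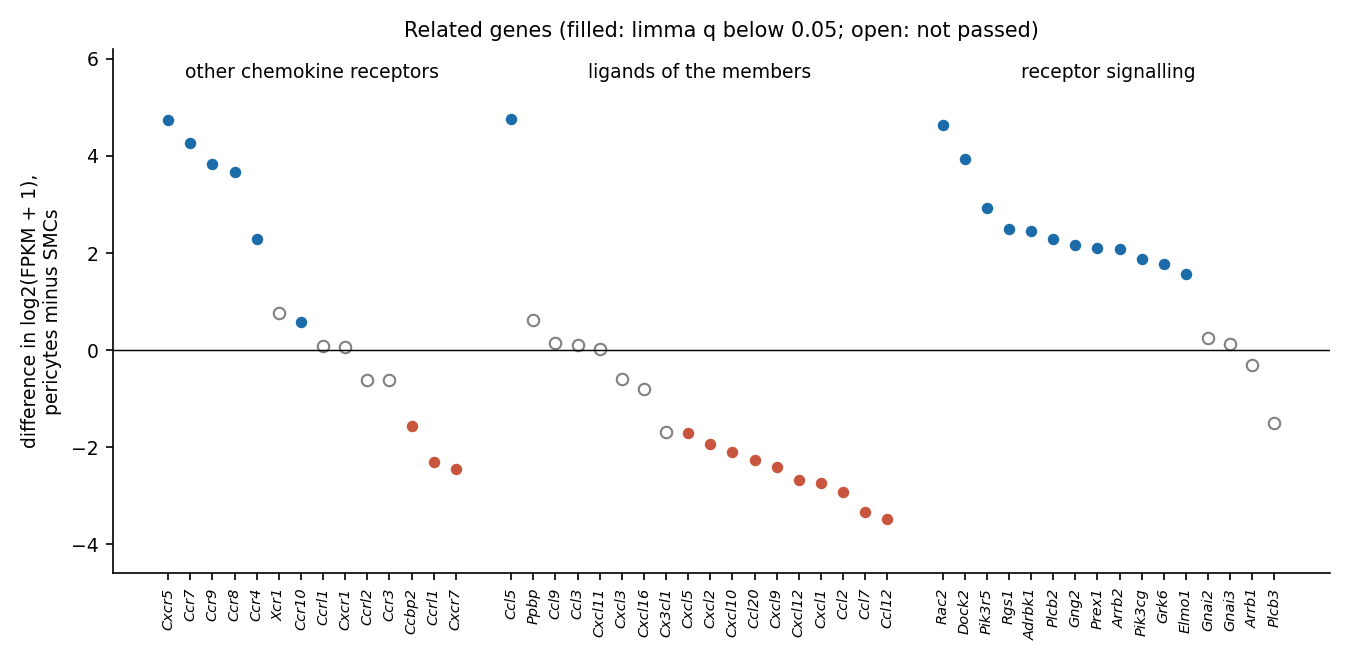
Difference in log2(FPKM + 1), pericytes minus SMCs, for the other chemokine receptors, the ligands of the members and genes of receptor signalling (filled points, limma q below 0.05; open points, not passed; blue, higher in pericytes; red, higher in SMCs). An entry not reported here is left out. The 2 points named Ccrl1 are separate entries with the same symbol, and Ccl5 is the only ligand that passed above 0.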

How the data were processed

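The 8 libraries were 4 of muscle pericytes and 4 of muscle SMCs, grouped by sample title. The authors assessed reads with FastQC and aligned them with Bowtie2 and TopHat to the mouse genome (NCBI Build 37) with an Ensembl annotation. They deposited FPKM per gene and library, without log transformation or filter, and the program that computed FPKM and any use of strand are not given in the sources used here. Ratios of FPKM values under 0.3 gave relative depths of 0.868 to 1.08 (largest over smallest 1.24), but read numbers are unknown, so no counting error is given. FPKM sums were 656405 to 737839 in SMCs and 690247 to 1.19e+06 in pericytes.

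Values were analysed as log2(FPKM + 1) with limma 3.58.1 (R 4.3.3) and Benjamini-Hochberg adjustment (q value) over the 27414 genes above 0 in at least 1 library. In simulated data for this comparison (27414 genes), 92 of 100 genes changed by 4 log2 units and 60 of 100 changed by 2 were recovered, and 9 of 27214 unchanged genes were called. The changed genes were drawn from those with a mean log2(FPKM + 1) above 2. The recovery therefore does not cover Cxcr2 (group means 0.29 and 0.46) or Cx3cr1 (1.66 and 1.74). Alternatives were another pseudocount, filters, scalings, a block, a covariate, an intensity trend, an exact permutation test and each library left out. Positions came from GENCODE version 1 for mouse, and promoters from RefSeq. Python 3.11.15 with pandas 2.3.3 and matplotlib 3.10.9 was used.

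The members and gene lists were chosen with earlier results of these data known. Named genes were the members, the largest differences and the most abundant genes not passing in each related list, marker genes, and the 5 genes most like Darc or Cxcr6. Some genes of the lists count in the totals but are not reported here by name.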

Additional observations from a re-analysis of the deposited data

How the results depend on the processing

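The calls of the 8 receptors (5 higher in pericytes, 0 higher in SMCs) were the same under every alternative run, including each library left out in turn. Cxcr2 could not be tested with the filter at 1 FPKM in at least 4 libraries. Over the 17 limma alternatives the q values reached 0.0286 for Cxcr4, 0.0237 for Ccr2, 0.00257 for Cxcr3, 0.00187 for Cxcr6 and 9.5e-04 for Ccr6. The exact permutation p of each of these 5 was 0.0286, the smallest this design allows. With each library left out in turn, the log2 difference of Ccr1 ranged from -0.19 to 0.21 and that of Cx3cr1 from -0.22 to 0.13, so that the sign turned without pericyte replicate 4 (0.21), SMC replicate 2 (0.02) or SMC replicate 4 (0.01) for Ccr1 and without pericyte replicate 2 (0.13) for Cx3cr1, none of them past the threshold. For Cxcr2 the log2 difference ranged from -0.25 to -0.06 with each library left out in turn and was -0.58 with a pseudocount of 0.1. With a pseudocount of 0.1 the order of Cxcr6 and Ccr6 turned (4.53 and 5.03, against 4.36 and 3.90). The log2 difference of Darc ranged from -5.31 with TPM scaling to -4.78 without pericyte replicate 3. TPM scaling moved the median difference of the 13612 genes averaging 1 FPKM or more by -0.21 and the share of calls that were higher in pericytes from 48.8% to 36.2% (2117 higher in pericytes and 3734 higher in SMCs, against 2917 and 3060).

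Same-numbered pericyte and SMC libraries deviated from their group means with correlations of 0.0794 to 0.474 across 13612 genes, and 5 of 8 libraries were closest to their own number, so the libraries were taken as sharing a number only. All 8 correlations within replicates 1 and 2 or within 3 and 4 were positive (0.0794 to 0.538) and all 8 across them were negative (-0.451 to -0.102). A replicate block gave 2978 calls in favour of pericytes and 3175 in favour of SMCs (3794 and 3929 with replicates 1 and 2 against 3 and 4 as a covariate), and with the block the q values were 9.5e-04 for Cxcr6 and Ccr6, 0.00257 for Cxcr3, 0.00782 for Cxcr4 and 0.0237 for Ccr2. With the block, and with replicates 1 and 2 against 3 and 4 as a covariate, 1 signalling gene, Plcb3, was higher in SMCs (q = 0.0164 and 0.00193 by limma), where 0 were without them. The block also changed the calls of Xcr1, Ccrl2, Cxcl3 and Cx3cl1, which passed with it, and of Ccl20, which no longer passed (limma q = 0.0752). Xcr1 and Cx3cl1 passed with the covariate as well (limma q = 0.0129 and 0.00649). With pericyte replicate 2 left out, an alternative added after the data were seen, the ratio to Ptprc was higher in every SMC library for 6 of 8 receptors, against 4 with all libraries and with any other library left out. With Coro1a or Laptm5 in place of Ptprc, also added after the data were seen, it was higher for 6 and 3 receptors. Unknown read numbers limit what can be said of Cxcr2 and other genes below 1 FPKM.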
